A study of Mus musculus with 12 samples.

Results

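The genes of the presynaptic release machinery were followed across cell clusters of the embryonic mouse cortex after prenatal exposure to ethanol (EtOH) or saline. Members were all gene symbols in the files made of Syt, Stx, Stxbp or Vamp and a number with at most 1 letter, together with Snap25, Snap91, Syn1 to Syn3, Rims1 to Rims4, Unc13a to Unc13c, Bsn, Pclo, Erc1, Erc2, Cplx1, Cplx2 and Sv2a to Sv2c. This rule took 65 of 23513 genes. Expression was measured by single nucleus RNA sequencing (snRNAseq), which counts unique molecular identifiers (UMIs, tags that mark single captured transcripts) in isolated nuclei. Pregnant C57BL/6J mice without a labelled genetic change received 2.5 g/kg EtOH or saline by daily injection into the abdominal cavity for 6 days up to the day before the cortices were taken, per the study's methods. The labels give the age as embryonic day 14. The processed files held 5 saline embryos and 6 EtOH embryos, each group from 2 dams, so that littermates were treated as independent samples and p-values may be too small. Embryos are named by dam and sample number (S1-1 is the first sample of saline dam S1). Dams S1 and E1 formed batch 1 and dams S2 and E2 batch 2 in the labels. Saline embryo S2-3 was not used here. The 25 clusters carry the study's names and fall into radial glial cells (RGC, 5 clusters), intermediate progenitor cells (IPC, 2), projection neurons (PN, 8), interneurons (Int, 7) and 3 other clusters.

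Neurotransmitter release depends on vesicles that dock at the active zone, a protein scaffold at the presynaptic membrane. There, the SNARE proteins of vesicle and membrane zip together and drive fusion, synaptotagmins sense calcium, and complexins and Stxbp (Munc18 family) proteins control the SNAREs. In the embryonic cortex radial glia divide and give rise to intermediate progenitors and neurons, and young neurons express many of these genes before they form synapses, while other syntaxins and Vamp proteins serve membrane traffic in all cells.

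The libraries held 44017566 to 83061737 UMIs in the saline embryos and 14078316 to 38034349 in the EtOH embryos, over 50550 nuclei in all. Median UMIs per nucleus ran from 6325 to 9051 in saline and from 4071.5 to 6911 in EtOH, so depth and treatment cannot be told apart. Saline embryo S2-4 stood apart from its group. On the first principal component of log2 CPM (UMIs of a gene scaled to a total of 1000000), which held 39.6% to 53.5% of the variance in the 4 classes, the other 4 saline embryos scored from -28.5 to -10.2, the EtOH embryos from 8.2 to 14.6 and S2-4 from 10.8 to 12.3. At 6325 UMIs per nucleus S2-4 was also the shallowest saline library, where the other 4 lay from 8365 to 9051. Its label was taken as given, and whether the label or the depth sets it apart was not tested. Calls are given with and without S2-4, and leaving out the saline embryo nearest to EtOH by itself favours calls, so the counts without it are no independent support. Pairs of libraries shared 1 to 18 cell barcodes, at most 0.384% of the smaller library, and doublets were not called here. The class markers went with the labels, since Gad2 averaged 962 CPM in Int and 40.1 in PN, Neurod2 187 in PN and 23.7 in Int, and Hes1 74.1 in RGC and 2.97 in PN.

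**Figure D1:**
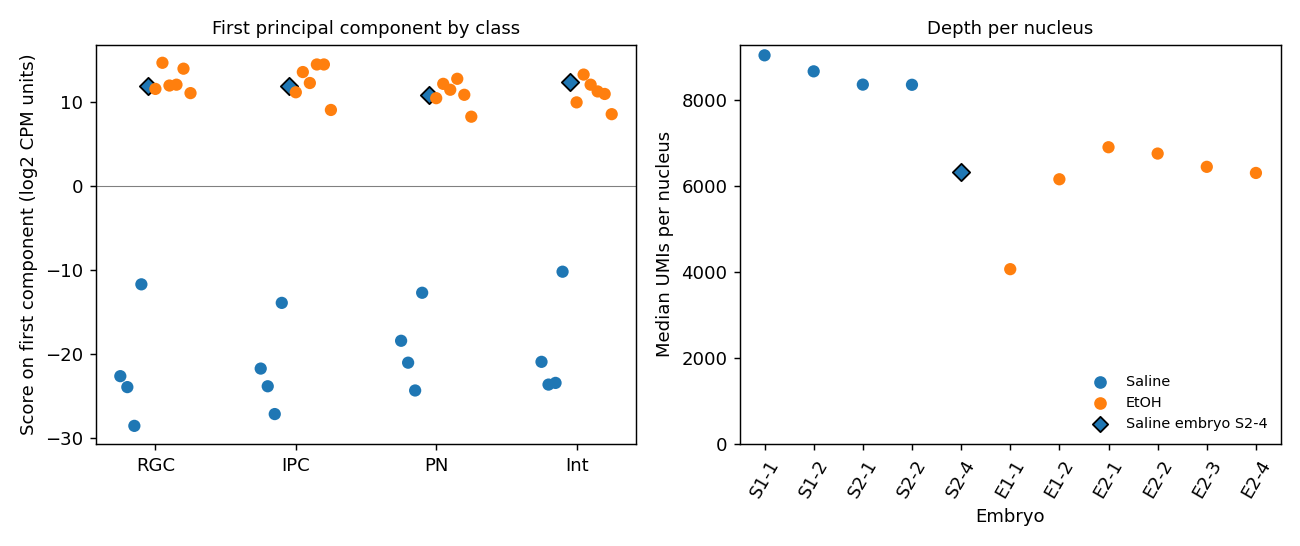
Left, score of each embryo on the first principal component of log2 CPM in each of 4 cell classes, and right, median UMIs per nucleus of each embryo. Blue is saline, orange is EtOH and the outlined diamond is saline embryo S2-4, which lies among the EtOH embryos in all 4 classes.

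Promoters are shown for Pclo, Snap91 and Syt1, which were lower in EtOH progenitors or neurons below and have an entry among the RefSeq promoters of build GRCm38.p6 (250 bases before to 50 after the start). Of the 65 members, 51 had such an entry. The promoter of Pclo lies on the plus strand at chr5:14514668-14514967, that of Snap91 on the minus strand at chr9:86880659-86880958, and 1 of those of Syt1 on the minus strand at chr10:109010926-109011225. Capitals mark the GC box (GGGCGG or its reverse CCGCCC).
Pclo: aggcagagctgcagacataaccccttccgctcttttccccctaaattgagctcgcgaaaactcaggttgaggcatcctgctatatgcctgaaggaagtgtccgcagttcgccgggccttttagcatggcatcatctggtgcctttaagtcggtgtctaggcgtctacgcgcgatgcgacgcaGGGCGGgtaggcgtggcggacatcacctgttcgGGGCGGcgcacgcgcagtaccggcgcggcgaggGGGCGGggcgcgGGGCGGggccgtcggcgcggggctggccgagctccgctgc
Snap91: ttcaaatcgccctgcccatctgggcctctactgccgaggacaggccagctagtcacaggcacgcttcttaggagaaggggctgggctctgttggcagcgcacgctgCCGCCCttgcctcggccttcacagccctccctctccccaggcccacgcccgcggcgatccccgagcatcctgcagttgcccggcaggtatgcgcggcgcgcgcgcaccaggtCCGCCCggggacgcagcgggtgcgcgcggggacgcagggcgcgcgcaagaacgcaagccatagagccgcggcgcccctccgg
Syt1: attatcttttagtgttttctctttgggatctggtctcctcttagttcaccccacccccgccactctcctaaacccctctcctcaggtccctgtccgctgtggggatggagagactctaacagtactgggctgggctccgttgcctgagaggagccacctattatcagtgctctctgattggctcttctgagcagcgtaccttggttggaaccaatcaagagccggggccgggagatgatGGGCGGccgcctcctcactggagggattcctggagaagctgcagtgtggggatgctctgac
The GC box was present in 46 of 64 member promoters (71.9%) and in 35.7% of all 32851 promoters. The letters CAGCTG, an E-box, were in 29.7% of member promoters and 16.3% of all, TATAAA in 6.25% and 13.6%, and the CRE letters TGACGTCA in 3.12% and 1.79%, on both strands. Member promoters had a median GC content of 64.2%, against 52.7% over all promoters. These matches describe letters and not bound sites.

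Across the 4 classes, most genes of the fusion machinery proper had their highest level in neurons, and the trafficking syntaxins did not. Of the 61 members with enough counts to be tested, 35 (57.4%) had a higher mean CPM in PN than in RGC and 42 (68.9%) a higher one in Int than in RGC, where the shares over 13425 genes were 28% and 31.3%. A mean more than 2 times that of RGC in both neuron classes was found for 20 members (32.8%) and 6.08% of genes. Conversely 18 members (29.5%) were highest in RGC among the 3 classes, against 64.8% of genes. By cluster, 30 members peaked in a PN cluster, 13 in an RGC cluster, 12 in an Int cluster, 5 in an IPC cluster and 5 in other clusters. The matching shares over all genes were not computed, and a peak in a single cluster does not rank the classes. By class mean, 21 of the 61 members (34.4%) were higher in PN than in Int, beside 30.5% of genes. The 4 members outside the test were the trafficking SNAREs Vamp5 (104 UMIs in all), Vamp8 (108) and Stx11 (179) and the synaptotagmin Syt15 (97). These levels come from the same nuclei that define the clusters and are descriptions.

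**Figure D2:**
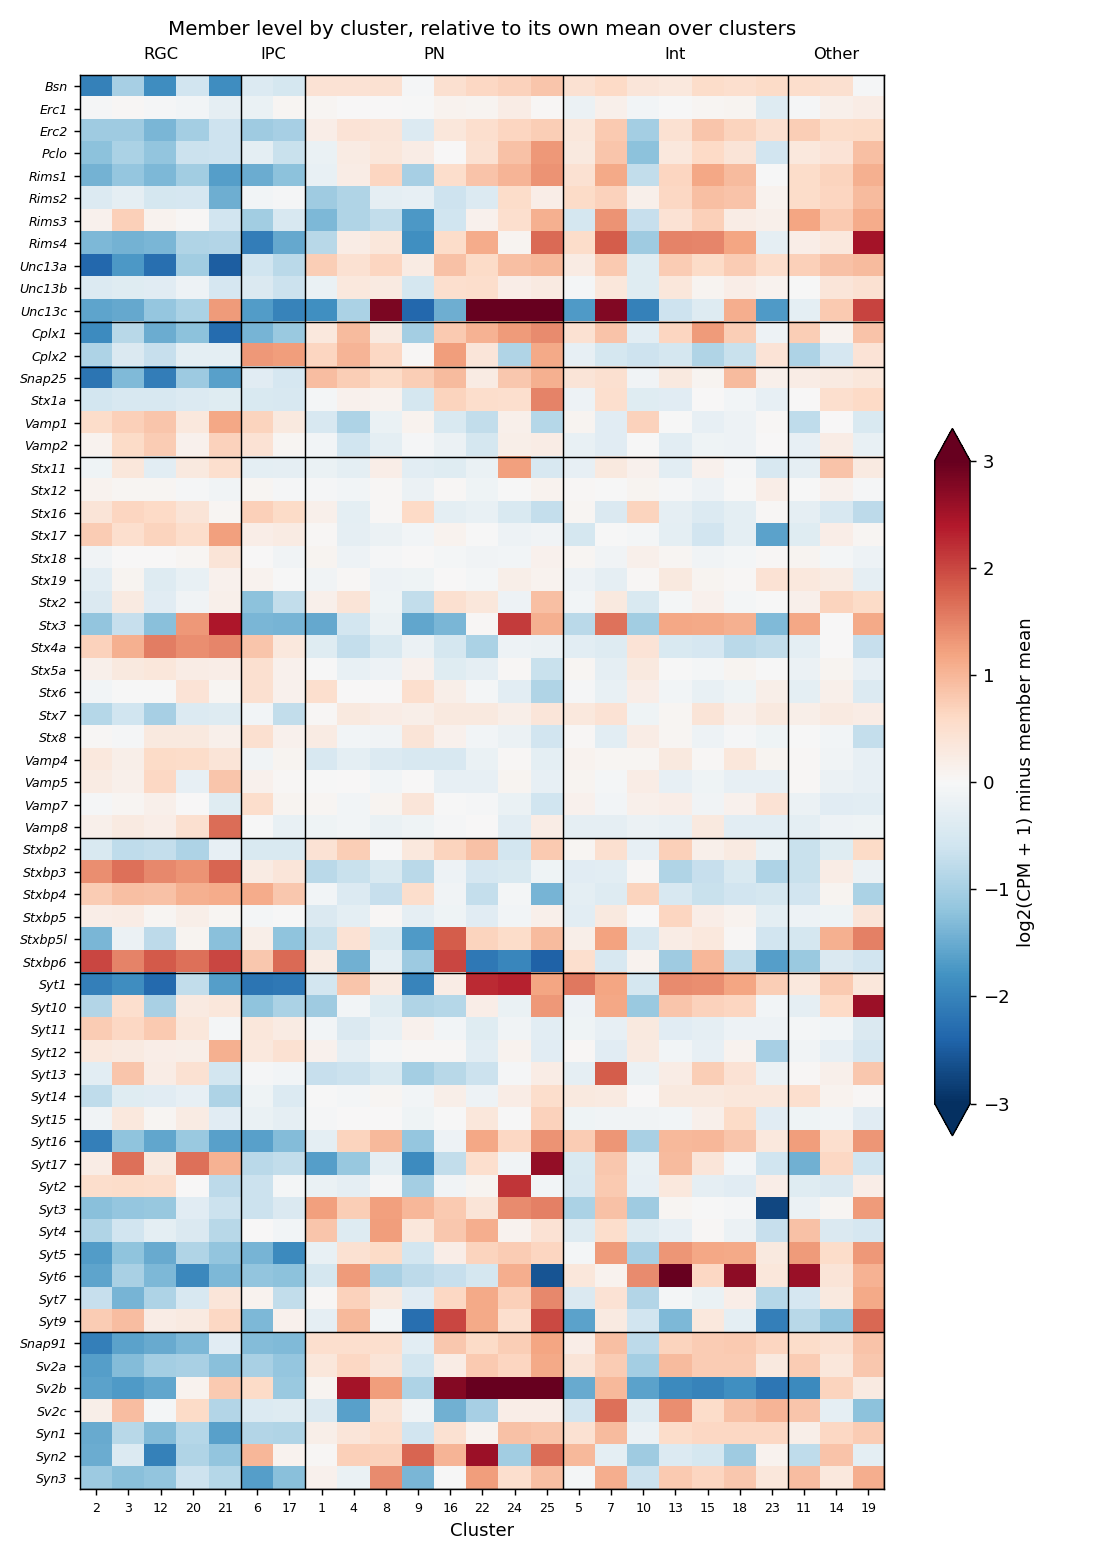
Mean level of 63 members (rows, grouped by role) in each of 25 clusters (columns, grouped by class) as log2(CPM + 1) minus the member's own mean over clusters, red above and blue below, with colours ending at 3 in either direction. Bsn, Unc13a, Snap91 and Syn1 are mostly red in PN and Int clusters, Erc1 is pale throughout, and Stxbp3, Stxbp4 and Stxbp6 are red in RGC clusters.

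Among the exocytic SNAREs, Snap25, the membrane SNARE of synaptic fusion, averaged 343 ± 24 CPM in PN (SD, n = 11), 258 ± 17.4 in Int, 153 ± 12.2 in IPC and 60.1 ± 13.2 in RGC. The RGC level of Snap25 was 17.5% of that in PN. For comparison, the PN transcription factor Neurod6 was in Int at 17.9% of its PN level, and Gad2, the GABA enzyme of interneurons, was in PN at 4.17% of its Int level. Free RNA was not measured, so a low level in progenitors may not come from their own transcription. Stx1a, the neuronal syntaxin, was at 36 ± 4.05 CPM in PN and 22.5 ± 2.28 in RGC. Vamp2 (synaptobrevin), the vesicle SNARE, went the other way, with 16 CPM in RGC and 9.91 in PN.

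The calcium sensor Syt1 averaged 2109.5 ± 202 CPM in Int, 1296 ± 168 in PN, 251 ± 112 in RGC and 199 ± 100.4 in IPC (SD, n = 11). Over clusters Syt1 was highest in PN cluster 24, at 4477 ± 1405 CPM over 10 embryos. Syt11, a synaptotagmin that does not bind calcium, had the opposite order, with 243 ± 33.2 CPM in RGC and 133 ± 12.4 in PN. Syt6 was highest in Int cluster 13, at 286 ± 27.7 CPM, with 2.36 ± 3.94 in PN cluster 25 (n = 7). Of the active zone genes, Rims1, a scaffold that tethers calcium channels, was at 631 ± 59.1 CPM in Int, 464 ± 24.3 in PN and 155 ± 31.9 in RGC. Rims2 differed from it in being at 493 ± 69.8 CPM in RGC and 448 ± 59.1 in PN, values that overlap, while Int held 1021 ± 67.6. Erc2, an active zone organiser, averaged 1350 ± 124 CPM in Int and 465 ± 42.1 in RGC. Unc13c, a vesicle priming factor, reached 609 ± 142 CPM in callosal PN cluster 22 and 5.58 ± 2.85 in early PN cluster 9.

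Of the vesicle genes, Syn3 (synapsin, which tethers vesicles) averaged 448 ± 53 CPM in Int and 145 ± 17.4 in RGC. Syn2 was at 282 ± 42.1 CPM in PN, 258 ± 47.1 in IPC and 73.2 ± 10.4 in RGC. Snap91, a clathrin adaptor that retrieves vesicle membrane, was at 263 ± 23 CPM in Int, 259.8 ± 10.6 in PN and 59.7 ± 11.7 in RGC. Sv2b, a vesicle glycoprotein, was 5.77 times higher in PN than in Int. Of the complexins, Cplx1 was at 14.3 ± 1.28 CPM in PN and 2.89 ± 0.797 in RGC, and Cplx2 peaked in IPC at 71.5 ± 9.5. In the Stxbp group, Stxbp6, Stxbp4 and Stxbp3 were higher in RGC than in PN by class mean, with Stxbp6 at 247 ± 14.6 CPM against 67.4 ± 13.8 in PN, Stxbp4 at 180 ± 12 against 82.7 ± 8.28, and Stxbp3 at 37.7 against 7.93. By cluster, Stxbp6 reached 286 CPM in PN cluster 16 and 285 in RGC cluster 21. Stxbp4 was at 199 CPM in IPC, its highest class. Of the trafficking SNAREs, Stx8 was at 147 ± 11.1 CPM in IPC, 119 ± 8.07 in RGC, 117 ± 5.61 in PN and 108 ± 7.02 in Int. Stx6 was likewise highest in IPC, at 172 ± 10.2 CPM, with 152 ± 6.86 in PN, 133 ± 6.88 in RGC and 126 ± 5.43 in Int.

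To ask whether EtOH changed these genes, UMIs were summed per embryo and cluster or class and tested with edgeR's quasi-likelihood test, with Benjamini-Hochberg adjustment over all genes tested. A class sum also moves with the share of each cluster in it, and that part was not tested. Calls required an adjusted p below 0.05 together with a log2 fold change over 0.32 in size. Over the 25 clusters, 1173 member tests gave 2 higher and 6 lower calls, where 0.442% of all gene tests were higher and 0.35% lower. Without S2-4, 1175 member tests gave 31 higher and 49 lower calls, with 6.17% of all gene tests higher and 2.61% lower. With all embryos the 6 lower calls came from 5 members and were close to the background share, and the 2 higher calls were below it. Calls in different clusters come from the same embryos. Without S2-4 the lower member calls were a larger share of the member tests than the background and the higher calls were a smaller one. Scaled by total UMIs only, the counts were 1 higher and 0 lower with all embryos (0.253% and 0.123% of all gene tests), both smaller shares than the background. Without S2-4 this scaling gave 46 higher and 32 lower (7.5% and 1.49%). Higher calls then outnumbered lower ones, as they did over all genes. They were still a smaller share than the background, and the lower calls a larger one. With the batch as a replicate block the counts were 1 higher and 1 lower with all embryos (0.232% and 0.188% of all gene tests), both smaller shares than the background, and 29 and 45 without S2-4 (5.72% and 2.75%).

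In RGC, 3 of 61 members were lower and 0 higher, against 1.48% of genes lower and 2.31% higher. Without S2-4 the RGC counts were 7 lower and 3 higher, against 5.78% and 12.7%. With all embryos and scaling by total UMIs only, 0 members were called in RGC, where 0 of 14282 genes were higher and 1 lower. That scaling also called 0 members and 0 of 11558 genes in IPC. In IPC 1 member was higher and 1 lower of 54 (0.883% and 0.64% of genes), and without S2-4 2 were higher and 8 lower of 52 (10.1% and 4.85%). With the batch as a replicate block and all embryos, edgeR called no member and no other gene in IPC, with 14 of 54 members and 23.1% of genes at an unadjusted p under 0.05, where DESeq2 without the block called Syt12 higher and Syt1 and Rims2 lower. In PN 2 were higher and 1 lower of 61 (4.17% and 2.36% of genes), and without S2-4 6 and 2 (14.9% and 6%). In Int no member was called (3.6% of genes higher and 1.23% lower), with 11 of 61 members and 28.3% of genes at an unadjusted p under 0.05, while Syt5 was called higher there by DESeq2 and by edgeR with the batch as a replicate block, and without S2-4 3 were higher and 1 lower (13.6% and 3.55%). DESeq2 made 7 higher calls, of 5 members, and 10 lower calls, of 7 members, over the 4 classes, where 6.11% of all gene tests were higher and 2.81% lower. The median log2 fold change of the members was -0.07 in RGC, -0.07 in IPC, -0.03 in PN and -0.01 in Int, where that of all genes was 0.00 in RGC and 0.01 in the others. Scaled by total UMIs only, the members' medians were 0.01, 0.00, 0.02 and 0.07, and those of all genes 0.08, 0.07, 0.06 and 0.08.

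**Figure D3:**
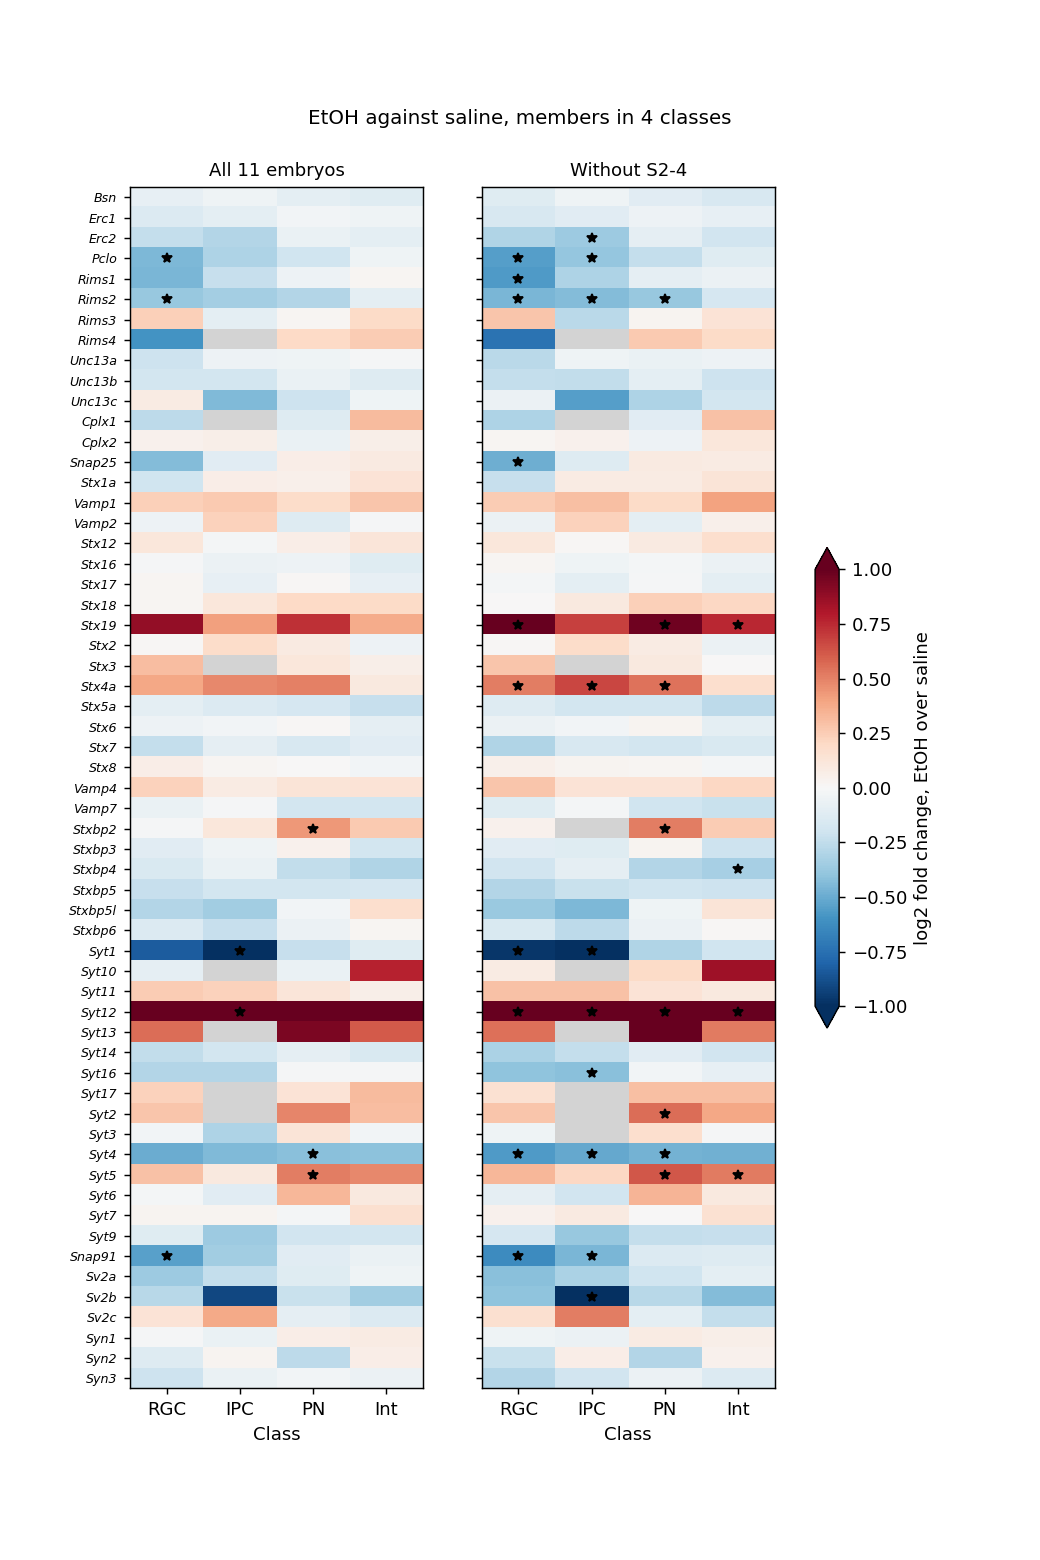
Log2 fold change of EtOH over saline for 59 tested members (rows) in 4 classes, with all 11 embryos on the left and without S2-4 on the right, blue for lower and red for higher in EtOH. Stars mark calls, of which there were 8 on the left and 32 on the right. Grey is not tested, and colours end at a log2 fold change of 1 in either direction.

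In the active zone group 3 of 240 tests over the clusters were called lower and 0 higher, where 0.35% of all gene tests were lower, and 1 was lower with the batch as a replicate block. Without S2-4, 23 of 241 were lower and 4 higher, against 2.61% and 6.17% of all gene tests. All 10 of its members tested in IPC and 9 of 11 in RGC had a negative log2 fold change, with a median of -0.21 in both classes. The medians of all genes were 0.01 in IPC and 0.00 in RGC. The members share the same embryos, so their signs are not independent. In IPC 0 were called, with 3 of 10 at an unadjusted p under 0.05, beside 2736 of 11558 genes. In RGC 2 of 11 were called lower, where 1.48% of genes were. Scaled by total UMIs only, 0 were called over the 4 classes with all embryos. Pclo (piccolo, a giant scaffold protein of the active zone) was lower in RGC. Its level in RGC was 175, 178, 209.7 and 174 CPM in saline embryos S1-1, S1-2, S2-1 and S2-2 and 137 in S2-4, and the EtOH embryos ran from 126 over a median of 131 to 155. All EtOH embryos lay below the 4 other saline embryos, and S2-4 lay among them. Pclo had a log2 fold change of -0.45 ± 0.10 (SE, edgeR adjusted p = 0.0402), and -0.55 ± 0.07 without S2-4 (adjusted p = 8.56e-05). Within batch 1, which does not hold S2-4, the log2 ratio of Pclo means was -0.32 and within batch 2 it was -0.39. Pclo was also called lower in RGC clusters 2 and 12, calls that were lost with the batch as a replicate block (edgeR adjusted p = 0.052 and 0.0604), and without S2-4 in 6 clusters (1, 2, 3, 6, 9 and 12).

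Rims2, which links vesicles to calcium channels, was lower in RGC cluster 3, named interneuron precursors by the study. Its level there was 654, 625, 635 and 634 CPM in S1-1, S1-2, S2-1 and S2-2 and 515 in S2-4, and 474, 506 and 521 in EtOH (lowest, median, highest). S2-4 lay within the EtOH range, and the other saline embryos lay above it. The log2 fold change of Rims2 was -0.35 ± 0.08 (edgeR adjusted p = 0.0354), and -0.43 ± 0.06 without S2-4 (adjusted p = 5.57e-05). In the RGC class Rims2 was called lower with all embryos too, at -0.38 ± 0.09 (edgeR adjusted p = 0.0405). Without S2-4 Rims2 was lower in 9 clusters and in RGC, IPC and PN. Rims1 had a log2 fold change of -0.46 ± 0.13 in RGC (adjusted p = 0.0566) and was not called there by edgeR with all embryos, while DESeq2 called it at -0.47 ± 0.14 (adjusted p = 0.0143). Without S2-4 edgeR called Rims1 at -0.57 ± 0.10 (adjusted p = 0.00151). In Int, Rims1 averaged 609 CPM in saline and 649 in EtOH.

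Of the vesicle genes, Snap91 was lower in the sum over RGC clusters, while no single cluster was called with all embryos. It was at 73.2, 65.6, 77.6 and 78.5 CPM in S1-1, S1-2, S2-1 and S2-2 and at 55.5 in S2-4, and the EtOH embryos ran from 48.4 over 51.2 to 53.4. The groups did not overlap, and S2-4 was the saline embryo nearest to EtOH. For Snap91 the log2 fold change was -0.54 ± 0.09 (edgeR adjusted p = 0.0402), and -0.63 ± 0.06 without S2-4 (adjusted p = 5.37e-06). Within batch 1 the log2 ratio of Snap91 was -0.42.

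Of the exocytic SNAREs, Snap25 was lower in non-mitotic RGC cluster 12, where saline embryos held 80.2, 56.5, 72 and 46.5 CPM, S2-4 held 52.7 and EtOH embryos 22.3, 36.5 and 44 (lowest, median, highest). All EtOH embryos lay below all saline embryos. The log2 fold change of Snap25 was -0.85 ± 0.19 (edgeR adjusted p = 0.0419), -0.91 ± 0.19 without S2-4 (adjusted p = 0.002) and -0.81 ± 0.19 with the batch as a replicate block (adjusted p = 0.0604). In PN, where Snap25 is most abundant, it averaged 328 CPM in saline and 355 in EtOH and was not called.

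Of 225 synaptotagmin tests over the clusters, 2 were called higher and 2 lower (0.442% and 0.35% of all gene tests), and 1 and 0 with the batch as a replicate block. Without S2-4, 14 of 227 were higher and 14 lower (6.17% and 2.61%). Syt1 was lower in callosal PN cluster 1, at 714, 665, 867 and 630.5 CPM in S1-1, S1-2, S2-1 and S2-2, at 636 in S2-4, and at 432, 564 and 613 in EtOH (lowest, median, highest). The groups did not overlap, though the gap between them was small beside the spread. The log2 fold change of Syt1 there was -0.39 ± 0.10 (edgeR adjusted p = 0.0478), -0.44 ± 0.10 without S2-4 (adjusted p = 0.00934) and -0.39 ± 0.11 with the batch as a replicate block (adjusted p = 0.066). In IPC, Syt1 was at 261, 237, 456 and 257 CPM in the same saline embryos, 161 in S2-4 and 113 to 146 in EtOH, with a median of 139.9. Its log2 fold change in IPC was -1.08 ± 0.23 (edgeR adjusted p = 0.0491), -1.23 ± 0.18 without S2-4 (adjusted p = 0.00137) and -1.09 ± 0.25 with the batch as a replicate block (adjusted p = 0.0639).

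Syt4, an activity-regulated synaptotagmin of dense core vesicles, was lower in PN. It was at 39.6, 37.6, 41.8 and 40.2 CPM in S1-1, S1-2, S2-1 and S2-2 and at 34.1 in S2-4, against 26.6, 29.6 and 34 in EtOH (lowest, median, highest). The highest EtOH embryo lay just below S2-4, and the other saline embryos lay above both. EtOH over saline, Syt4 had a log2 fold change of -0.42 ± 0.08 (edgeR adjusted p = 0.0234), and -0.47 ± 0.06 without S2-4 (adjusted p = 5.35e-05). Within batches the log2 ratio of Syt4 was -0.43 in batch 1 and -0.35 in batch 2.

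Syt5, a calcium sensor, was higher in callosal PN cluster 1. Its level there was 9.6, 9.46, 13.8 and 7.64 CPM in S1-1, S1-2, S2-1 and S2-2 and 14.3 in S2-4, and 16.6, 19.5 and 24.6 in EtOH (lowest, median, highest). All EtOH embryos lay above all saline embryos. The log2 fold change of Syt5 was 0.83 ± 0.17 (edgeR adjusted p = 0.0243), and 0.94 ± 0.17 without S2-4 (adjusted p = 0.000433). Syt5 had a positive log2 fold change in all 19 clusters where it was tested and was called in 2, or in 8 without S2-4. Its call in the other cluster, 14, was lost with the batch as a replicate block (edgeR adjusted p = 0.0712).

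Syt12, a synaptotagmin that does not bind calcium, was higher in IPC at low counts. It was at 1.18, 0.646, 0.286 and 0.799 CPM in S1-1, S1-2, S2-1 and S2-2 and at 4.33 in S2-4, and at 4.06, 5.77 and 8.27 in EtOH (lowest, median, highest). S2-4 lay within the EtOH range and the 4 other saline embryos well below it. Syt12 changed by 1.90 ± 0.46 on the log2 scale (edgeR adjusted p = 0.0491), by 1.85 ± 0.48 with the batch as a replicate block (adjusted p = 0.0614) and by 2.75 ± 0.38 without S2-4 (adjusted p = 6.36e-05). Stxbp2, a Munc18 relative of non-neuronal secretion, was higher in PN, at 5.82, 6.15, 6.39 and 5.85 CPM in the same 4 saline embryos, 8.04 in S2-4 and 7.36, 9.18 and 9.78 in EtOH. Only S2-4 among the saline embryos fell within the EtOH range. The log2 fold change of Stxbp2 was 0.43 ± 0.11 (edgeR adjusted p = 0.0352), and 0.51 ± 0.11 without S2-4 (adjusted p = 0.00251). With all embryos both Syt12 and Stxbp2 were called in a class sum and in no single cluster.

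**Figure D4:**
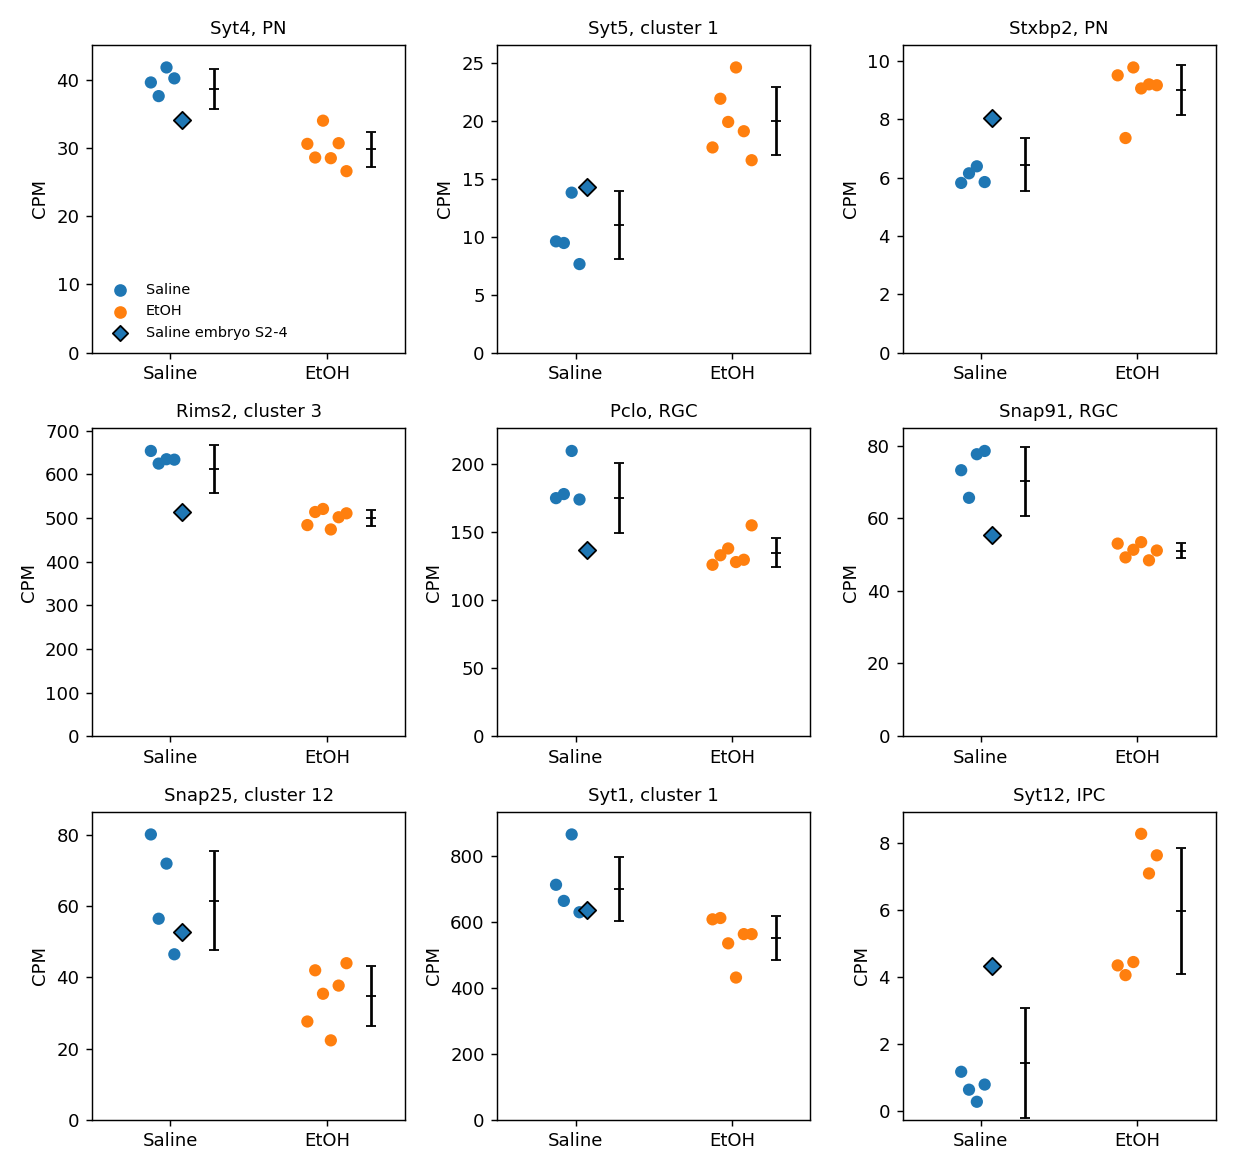
CPM of the 9 called members in each embryo, each in the cluster or class of its smallest adjusted p, with mean ± SD beside the points. Blue is saline, orange is EtOH and the outlined diamond is saline embryo S2-4, which is the saline embryo nearest to the EtOH range, or within it, for all but Snap25 and Syt1.

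In edgeR's test the complexins had no call in 37 cluster tests with all embryos or in 36 without S2-4, with 4 at an unadjusted p under 0.05 in each set (17.4% and 23.2% of all gene tests), and none in the classes. DESeq2 made none either, while limma's voom fit with dams as random blocks made 1 higher call in 37 cluster tests. Without S2-4 and with the batch as a replicate block, edgeR made 2 higher calls in 36 cluster tests (5.72% of all gene tests). Scaled by total UMIs only, it made 2 higher calls in 36 cluster tests (7.5% of all gene tests) and 1 in 7 class tests. Both of these cluster counts were smaller shares than the background. For the voom call and the class call the share over all genes was not computed. The trafficking SNAREs had no call in edgeR's test with all embryos, with 33 of 289 cluster tests and 12 of 55 class tests at an unadjusted p under 0.05, where 17.4% and 28.9% of all gene tests were. DESeq2 called them higher in 1 of 289 cluster tests and 3 of 55 class tests. Over the classes 6.11% of all its gene tests were higher, and its share over the clusters was not computed. With the batch as a replicate block, edgeR called Stx4a, one of these SNAREs, higher in PN. Without S2-4 the trafficking SNAREs had 11 higher calls and 1 lower one in 291 cluster tests, where 6.17% of all gene tests were higher and 2.61% lower. Both were smaller shares than the background. The higher calls included Stx19 in 4 clusters and Stx4a and Stx18 in 3 each. Stx4a, a plasma membrane syntaxin, was at 12.9, 10.9, 10.2 and 12.1 CPM in RGC of S1-1, S1-2, S2-1 and S2-2, at 18.3 in S2-4 and from 14.0 to 22.3 in EtOH. Its log2 fold change in RGC was 0.39 ± 0.15 (edgeR adjusted p = 0.112), and 0.51 ± 0.13 without S2-4 (adjusted p = 0.0113).

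Whether the EtOH effect differed between classes was tested by a class by treatment term within embryos. With all embryos no member passed in edgeR, where 0.00623% of genes differed between PN and RGC, 0.0193% between Int and RGC and 0.00639% between PN and Int, and the counts of members at an unadjusted p under 0.05 were 9, 16 and 5 of 61, beside 11.2%, 11.2% and 5.14% of genes. DESeq2 made 6 calls of members over the 3 pairs, where 0.537% of the gene tests to which it gave an adjusted p were called. The effect on Snap91 in Int minus that in RGC was 0.42 ± 0.08 on the log2 scale (edgeR adjusted p = 0.0556). Without S2-4, 2 members had a more positive effect in PN than in RGC, where 0.262% of genes did and 0.992% had a more negative one. The same 2 were more positive in Int than in RGC, where 0.0971% of genes were more positive and 0.0777% more negative. Between PN and Int 0 members differed, with 0% of genes more positive in PN and 0.0386% more negative. These were Snap91, at 0.41 ± 0.07 for PN minus RGC (edgeR adjusted p = 0.00631) and 0.44 ± 0.08 for Int minus RGC (0.0414), and Rims1, at 0.40 ± 0.09 (0.0375) and 0.43 ± 0.08 (0.0414).

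Summed marker transcripts, those of other cell types among them, differed in part between the groups, and their relation to the member results was not computed. The summed level of 5 interneuron markers (Gad1, Gad2, Dlx1, Dlx2 and Erbb4, all detected) ran in PN from 258 to 675 CPM in saline, lowest in S2-4, and from 139 to 323 in EtOH. In IPC it ran from 298 to 869 and from 159 to 445, again with S2-4 the lowest saline embryo. In RGC it ran from 989 to 2193 in saline, lowest in S2-4, and from 560.4 to 1405 in EtOH. The RGC class holds cluster 3, the interneuron precursors, which express Dlx1 and Dlx2 per the study. The RGC sum therefore includes transcripts of the class itself and also moves with the share of cluster 3. In Int the same sum overlapped, from 7814 to 12275 in saline and from 7996 to 12566 in EtOH. The 3 IPC markers (Eomes, Neurog2 and Mfap4, all detected) ran in PN from 30.3 to 47.2 CPM in saline and from 22 to 29.7 in EtOH, without overlap. Of the 3, 2 were called lower there, where 2.36% of all genes were. The 2 microglia markers (P2ry12 and Ly86, both detected) were low and reached higher values in EtOH, with S2-4 the highest saline embryo in each class. They ran in RGC from 6.84 to 23.7 CPM in saline and from 19.7 to 30.9 in EtOH, in PN from 2.93 to 6.14 and from 5.7 to 8.65, and in Int from 6.39 to 13.2 and from 12.8 to 21.3. The summed markers of meninges, pericytes, endothelium, oligodendrocyte precursors, thalamus and blood overlapped between the groups in all 4 classes. The part of these transcripts in the levels of Pclo, Rims2, Snap91, Snap25, Syt1, Syt4, Syt5, Syt12 and Stxbp2 was not tested. Of the neuron maturation list, 1 of 13 genes was lower in RGC (1.48% of all genes) and 6 without S2-4 (5.78%), with a median log2 fold change of -0.25 and -0.34. In IPC 1 of 12 was lower (0.64% of all genes) and 4 without S2-4 (4.85%), with medians of -0.24 and -0.31. In PN 1 of 14 was lower in either set of embryos (2.36% and 6% of all genes), with a median of -0.03 in both, and in Int none was called, with medians of -0.04 and -0.11 and 3 and 4 genes at an unadjusted p under 0.05. The 5 RGC markers (Hes1, Hes5, Ednrb, Nes and Slc1a3, all detected) summed in RGC to 524 to 772 CPM in saline and 737 to 909 in EtOH, with S2-4 at 726. Their median log2 fold change in RGC was 0.19, with 0 of 5 called (2.31% of all genes higher), and 0.17 without S2-4, with 1 called higher (12.7%). In the other classes it was, with all embryos, 0.13 in IPC and -0.11 in Int, with 0 called in either. In PN it was -0.44, with 4 of 5 negative and 1 called lower (2.36% of all genes).

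Summed over each role group, where long and abundant genes weigh most, the active zone genes were at 1948 ± 185 CPM in saline RGC and 1695 ± 38.1 in EtOH RGC (SD, n = 5 and 6), and at 2017 ± 118 in saline without S2-4. In PN the same sum was 3449 ± 204 and 3306 ± 58.4, and in Int it was 4262 ± 392 and 4266 ± 217. The exocytic SNAREs summed in Int to 289 to 324 CPM in saline and 328 to 355 in EtOH, with S2-4 the highest saline embryo, and from nuclei thinned to 2000 UMIs to 288 to 326 and 290.3 to 361, which overlap. The trafficking SNAREs summed to 743 ± 24.6 CPM in saline RGC and 795 ± 16.4 in EtOH RGC, and to 732 ± 5.03 in saline without S2-4. These sums are descriptions without a test.

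Of 49 other presynaptic genes found in the files, 2 of 906 cluster tests were called higher and 6 lower with all embryos, where 0.442% and 0.35% of all gene tests were. Without S2-4, 10 of 906 were higher and 46 lower, against 6.17% and 2.61%, so that higher calls were a smaller share than the background and lower calls a larger one. Over the 4 classes with all embryos, 3 of 176 tests of these genes were higher and 1 lower. In Int 3 of 46 were higher, where 3.6% of genes were, and in PN 1 of 46 was lower (2.36% of genes). Slc17a6, the vesicular glutamate transporter of young glutamatergic neurons, was lower in PN, with a log2 fold change of -0.40 ± 0.10 (edgeR adjusted p = 0.0345). Slc32a1, the vesicular GABA transporter, was higher in Int, at 0.43 ± 0.11 (edgeR adjusted p = 0.0364), as was the vesicle GTPase Rab3a, at 0.68 ± 0.18 (adjusted p = 0.0409). With the batch as a replicate block the call of Rab3a was lost (edgeR adjusted p = 0.0533), and those of Slc32a1 and Slc17a6 were not. Without S2-4 these named genes were called in the same direction, with Slc32a1 at 0.46 ± 0.11 (edgeR adjusted p = 0.00464), and Rab3a and Slc17a6 at 0.77 ± 0.18 (edgeR adjusted p = 0.00621) and -0.44 ± 0.10 (adjusted p = 0.00693).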

How the data were processed

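The authors aligned reads to the mm10 reference with Cell Ranger, filtered and clustered nuclei with Seurat (4.1.0) and removed non-neuronal clusters, per the study's methods. The deposited values are raw UMI counts per gene and nucleus, 1 table per embryo and cluster (275 tables). Counts were summed per embryo and cluster (at least 10 nuclei) or class, which left out 9 embryo and cluster pairs, and CPM used all UMIs of the sum. EtOH and saline were compared with edgeR 4.0.16 (filterByExpr, TMM, robust quasi-likelihood test) in R 4.3.3, with DESeq2 1.42.0 and limma 3.58.1 as alternatives and tables made in Python with pandas and NumPy. A class by treatment term with embryo as a factor tested differences between classes. The fits were tested on simulated data. Members and lists were chosen with earlier results of these data known.

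Named with values were all members called in at least 1 cluster or class and a few called genes of the other presynaptic list. Most of the 3 members of each role group with the most UMIs were also named. Syt16, Stxbp5 and Stx16 belong to these by their UMIs, but their values are not given. Vamp2, Syt6, Unc13c, Sv2b, Stxbp3, Rims1, Stx4a, Rab3a and Slc32a1 were added after their values were seen. The pairing of groups comes from the batch in the labels. The batch difference of log2 CPM in saline and that in EtOH correlated across genes at -0.05 to 0.06 in the 4 classes, and at -0.04 to 0.19 without S2-4, highest in Int. Of 65 members, 31 overlap a gene on the other strand and 22 one on the same strand in GENCODE, where counts may be shared. A few genes are not reported here by name or drawn, though counts and sums over the members include them.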

Additional observations from a re-analysis of the deposited data

Results flagged for a closer look

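Within groups, 74 sets of 5 or 6 embryos were checked for a sample far from the others (Dixon's 95% value), and 11 held one, where chance gives about 1 in 20. Saline embryo S2-4 was the one that stood out in 5 of them. It was highest for Stxbp2 in PN, at 8.04 CPM with the next at 6.39, and for Syt12 in IPC, at 4.33 with the next at 1.18. For Rims2 in cluster 3 it was lowest, at 515 CPM with the next at 625. It was also highest for the summed trafficking SNAREs in RGC, at 786 CPM with the next at 736, and in PN, at 742 with the next at 689.

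Saline embryo S2-1 was highest for the summed synaptotagmins in RGC, at 1087 CPM with the next at 793, and lowest for the summed Stxbp genes in PN, at 421 with the next at 471. Saline embryo S2-2 was lowest for the summed exocytic SNAREs in IPC, at 189 CPM with the next at 215. Among EtOH embryos, E2-1 was lowest for Stxbp2 in PN, at 7.36 CPM with the next at 9.06, E1-1 was highest for the summed trafficking SNAREs in RGC, at 827 with the next at 795, and E2-2 was lowest for the summed synaptotagmins in PN, at 1799 with the next at 1932.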

How the results depend on the processing

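Calls of members depended on the embryos, with S2-4 the most. For most settings below, the share of all genes called was not computed. The counts there show how the calls moved and not an effect on the members. Over the 25 clusters the main counts were 2 higher and 6 lower. They were 7 and 21 with DESeq2 and 15 and 49 with no gene filter, where the member tests rose from 1173 to 1608. With total UMIs only the counts were 1 and 0, and with the batch as a replicate block 1 and 1. After thinning to 2000 UMIs, which left 766 member tests, the counts were 0 and 6. They were 1 and 7 with counts summed per dam, 9 and 4 with voom and the dam as a random block, 4 and 7 by adjusted p alone, and 3 and 13 without the nuclei of highest UMIs. Leaving out 1 embryo gave 0 to 31 higher and 0 to 49 lower, both highest without S2-4. Over the 4 classes the main counts were 3 higher and 5 lower. They were 7 and 10 with DESeq2, 5 and 9 by adjusted p alone, 1 and 0 after thinning, 1 and 6 with counts summed per dam, 8 and 4 with voom, 3 and 9 with no gene filter, 2 and 1 with total UMIs only and 4 and 4 with the batch as a replicate block. Leaving out 1 embryo gave 0 to 14 higher and 0 to 18 lower.

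Alternatives chosen after seeing the data left out S2-4 together with another change. Over the clusters they gave 29 higher and 45 lower with the batch as a replicate block, 8 and 33 thinned, 25 and 52 with DESeq2, 46 and 32 with total UMIs only and 18 and 29 per dam. Over the classes they gave 13 and 18, 8 and 20, 14 and 20, 23 and 10, and 10 and 17. Differences between classes had 0 calls, 3 with DESeq2's size factors, 6 with DESeq2, 4 with no gene filter and 0 to 4 without 1 embryo. Thinning moved the EtOH minus saline difference of the summed complexins in RGC from 0.995 to -3.86 CPM and that of the Stxbp genes in Int from 10.7 to -6.09. The causes were not tested. Over the other fits of the 9 named members, leaving out 1 embryo included, 90 kept the call and 102 lost it. Over the fits chosen after seeing the data, which left out S2-4 and changed another setting, 41 kept it and 3 lost it. The direction held in all of them, with log2 fold changes from -0.56 to -0.37 for Pclo in RGC, -0.49 to -0.32 for Syt4 in PN, -0.75 to -0.46 for Snap91 in RGC, and for Syt1 in cluster 1 from -0.45 to -0.22. Leaving out S2-4 kept all 9 calls, leaving out any other embryo kept at most 5, and leaving out S1-1, S1-2, E2-2 or E2-3 kept none. Thinning kept 1 call of 8, and counts per dam or total UMIs only kept 3 of 9. Cluster 25 was not run with at least 20 nuclei, per dam, or without E2-2 or E2-3, and the classes were not run with at least 20 nuclei.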
